A study of Mus musculus with 12 samples.

Results

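Replication-dependent histone genes were read in mouse embryonic fibroblasts, connective tissue cells grown from mouse embryos. They were taken as the protein-coding genes of the count files whose symbol starts with Hist1h, Hist2h, Hist3h or Hist4h. The rule found 67 of 55536 gene IDs (21408 IDs are typed as protein-coding), of which 6 encode the linker histone H1, 18 encode H2A, 18 H2B, 12 H3 and 13 H4. By the RefSeq annotation of GRCm38, 54 lie in the HIST1 cluster, in 2 stretches of chr13:21715711-22043658 and chr13:23531044-23934913. A further 10 lie in HIST2 at chr3:96219885-96270192, 2 in HIST3 at chr11:58948911-58955192 and 1, Hist4h4, alone at chr6:136803993-136804431.

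The cells were given halofuginone (HF) at 100 nM for 6 h, or the same 6 h without it. Halofuginone occupies the prolyl-tRNA synthetase and so is used to mimic a lack of proline. Medium with dialyzed serum was used in both groups, so the control cells carried that change of medium too. The labels name no strain, genotype or passage for the cells and do not say whether replicates were separate cultures. Total RNA and ribosome footprints (RPF, the RNA pieces that ribosomes shield from nuclease) gave 4 groups of 3 libraries, namely RNA control, RNA HF, RPF control and RPF HF, and 12 libraries in all.

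As background, the core histones H2A, H2B, H3 and H4 form the protein spool of the nucleosome, and H1 binds the DNA where it enters and leaves. Their replication-dependent genes are transcribed mainly while DNA is copied in S phase, and their mRNAs end in a stem-loop bound by the protein SLBP instead of a poly(A) tail. These mRNAs are known to be destroyed when DNA synthesis stops.

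The promoters show what the classes share and where they differ, so 9 are printed here, each as the 150 bases before the annotated start, 5′ to 3′, from RefSeq on GRCm38.p6. They were chosen as 2 H1 genes, an H2A, 2 H2B, an H3 and 2 H4 genes that the results below return to or that hold the typical motifs, and Hist3h2a, the member with the highest fold change in RNA. Capitals mark exact matches, on either strand, of TATAAA, of the CCAAT box (read as ATTGG where it lies on the other strand), of the octamer ATTTGCAT (likewise read as ATGCAAAT), of the H4 motif GGTCCG and of the H1 motif AAACACA.
Hist1h1a, chr13:23763518-23763667, plus strand: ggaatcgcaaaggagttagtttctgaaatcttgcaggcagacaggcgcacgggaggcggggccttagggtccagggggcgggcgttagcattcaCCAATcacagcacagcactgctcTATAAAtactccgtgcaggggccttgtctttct
Hist1h1e, chr13:23622559-23622708, minus strand: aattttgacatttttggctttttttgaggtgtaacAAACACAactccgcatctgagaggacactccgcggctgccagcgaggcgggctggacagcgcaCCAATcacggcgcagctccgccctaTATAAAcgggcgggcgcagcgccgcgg
Hist1h2ac, chr13:23683960-23684109, minus strand: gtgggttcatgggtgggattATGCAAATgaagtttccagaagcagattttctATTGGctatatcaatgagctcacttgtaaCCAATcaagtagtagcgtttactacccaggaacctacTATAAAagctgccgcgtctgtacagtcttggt
Hist1h2bb, chr13:23746584-23746733, plus strand: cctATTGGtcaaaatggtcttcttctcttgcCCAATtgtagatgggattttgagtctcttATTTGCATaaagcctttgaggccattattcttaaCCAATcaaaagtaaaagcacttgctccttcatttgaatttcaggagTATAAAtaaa
Hist1h2bn, chr13:21753926-21754075, plus strand: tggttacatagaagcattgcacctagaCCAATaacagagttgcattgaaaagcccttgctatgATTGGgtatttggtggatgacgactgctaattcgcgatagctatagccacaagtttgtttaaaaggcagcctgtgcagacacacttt
Hist1h3g, chr13:23535268-23535417, plus strand: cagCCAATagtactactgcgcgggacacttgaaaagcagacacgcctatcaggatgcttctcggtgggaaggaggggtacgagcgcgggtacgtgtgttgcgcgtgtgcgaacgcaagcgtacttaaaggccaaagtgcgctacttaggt
Hist1h4d, chr13:23581418-23581567, plus strand: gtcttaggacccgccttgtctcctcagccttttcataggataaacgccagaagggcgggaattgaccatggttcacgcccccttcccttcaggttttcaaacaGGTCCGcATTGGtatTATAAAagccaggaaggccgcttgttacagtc
Hist4h4, chr6:136804432-136804581, minus strand: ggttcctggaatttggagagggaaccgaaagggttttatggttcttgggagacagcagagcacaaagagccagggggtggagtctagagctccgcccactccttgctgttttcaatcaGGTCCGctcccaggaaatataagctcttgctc
Hist3h2a, chr11:58954535-58954684, plus strand: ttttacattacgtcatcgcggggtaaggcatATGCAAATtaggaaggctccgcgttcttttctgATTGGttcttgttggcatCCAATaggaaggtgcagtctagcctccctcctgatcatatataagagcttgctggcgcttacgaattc

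A promoter window of 250 bases before to 50 after the start was found for 62 of the 67 members, and 12 motifs were searched on both strands. CCAAT, the box bound by NF-Y, was in 6 of 6 H1, 18 of 18 H2A, 16 of 16 H2B and 10 of 10 H3 windows but in 3 of 12 H4 windows, and in 37.4% of all 32851 windows of the table. GGTCCG, the core of the H4 element bound by HINFP, was in 11 of 12 H4 windows, in 1 of 16 H2B windows and 1 of 10 H3 windows, and in 8.25% of all windows. AAACACA, the H1 box, was in 5 of 6 H1 windows, all but that of Hist1h1a, in 2 H2A and 2 H2B windows, and in 7.18% of all windows. The octamer, known from H2B promoters as the site of Oct-1, was in 7 of 18 H2A and 7 of 16 H2B windows, in no window of the other classes, and in 1.74% of all windows. TATAAA was in 35 of 62 member windows against 13.6% of all windows, and its first 5 letters, TATAA, in 50 of 62 against 24.9%.

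Of the other 6 motifs, TTTCGCGC was in 9 of 62 member windows, 5 of H2A and 4 of H2B (0.323% of all windows), GCGGGAA in 6 (4.60%) and TGACGTCA, the CRE, in 4 (1.79%). TTTGGCGC (0.514% of all windows), TGATGCAA (0.895%) and TTCGGTTTT (0.180%) were in none. A match describes the letters of a window and is not evidence of binding. The windows of Hist1h2bq and Hist1h2br were identical over 300 of 300 bases. Among members with a strand in the promoter table, an H2A and an H2B gene stood head to head in 10 places, 163 to 280 bases apart, so that both share the DNA between them. Hist1h2bc (239 bases from Hist1h2ac) and Hist2h2be (191 bases from Hist2h2ac) have no strand in the annotation used here and could not be placed.

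Halofuginone cells held more histone mRNA and more histone footprints than control cells. Histone genes took 0.800% to 0.872% of the counts of the RNA control libraries and 2.49% to 2.61% of those of the RNA HF libraries. In footprints they took 2.00% to 2.12% in control and 5.52% to 6.10% in HF libraries. Other parts of the RNA libraries moved with the groups too: nuclear protein-coding genes took 73.9% to 76.2% of counts in RNA control and 79.7% to 81.8% in RNA HF libraries, and the single gene Gm42418 took 11.8% to 13.7% and 7.35% to 9.48%. As a share of nuclear protein-coding counts alone, histone genes took 1.05% to 1.18% in RNA control and 3.04% to 3.22% in RNA HF libraries. The groups of histone shares did not overlap in either assay, and every class had a higher summed level in each HF library than in any control library. Summed over the 67 genes and scaled to a common library size (CPM, with TMM library factors within each assay), RNA went from 8446 ± 564 (SD, n = 3) to 25759 ± 798, which is 3.05-fold. Footprints went from 21148 ± 537 to 62576 ± 4255, which is 2.96-fold. In bulk libraries more cells in S phase and more histone mRNA per cell cannot be told apart.

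Gene by gene, 60 of the 67 members had enough counts to be tested in RNA. Of these, 59 rose (edgeR's quasi-likelihood test, Benjamini-Hochberg adjusted p under 0.05 over all genes), 0 fell and 1 did not pass. Of all tested genes 22.2% rose and 21.4% fell. The median log2 fold change of the tested members was 1.64, against -0.02 over all tested genes. In 58 of the 60 every HF library lay above every control library, which was the case for 25.9% of all tested genes, and 51 of the 60 rose at least 2-fold, against 11.8%. In footprints 61 of 63 tested members rose and 0 fell (22.4% of all tested genes rose and 20.9% fell), with a median of 1.61 against -0.02. HF footprint libraries lay above all control libraries for 60 of the 63, against 25.1% of all tested genes, and 50 rose at least 2-fold, against 11.8%.

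The filter on low counts let some members in through the HF libraries. In RNA 8 of the 60 (Hist1h2ba, Hist3h2ba, Hist2h2ab, Hist2h2aa2, Hist2h2be, Hist1h2bq, Hist1h2bp and Hist3h2a) were under its minimum in 1 or more control libraries, and a gene that enters that way has to be higher in HF cells or uneven between libraries. Of the other 52, which reached the minimum in all RNA control libraries, 52 rose (21.3% of all such genes rose), with a median of 1.497 against -0.09. In footprints 5 of the 63 entered in the same way, and of the other 58, 56 rose (21.2% of all such genes), with a median of 1.55 against -0.08.

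**Figure D1:**
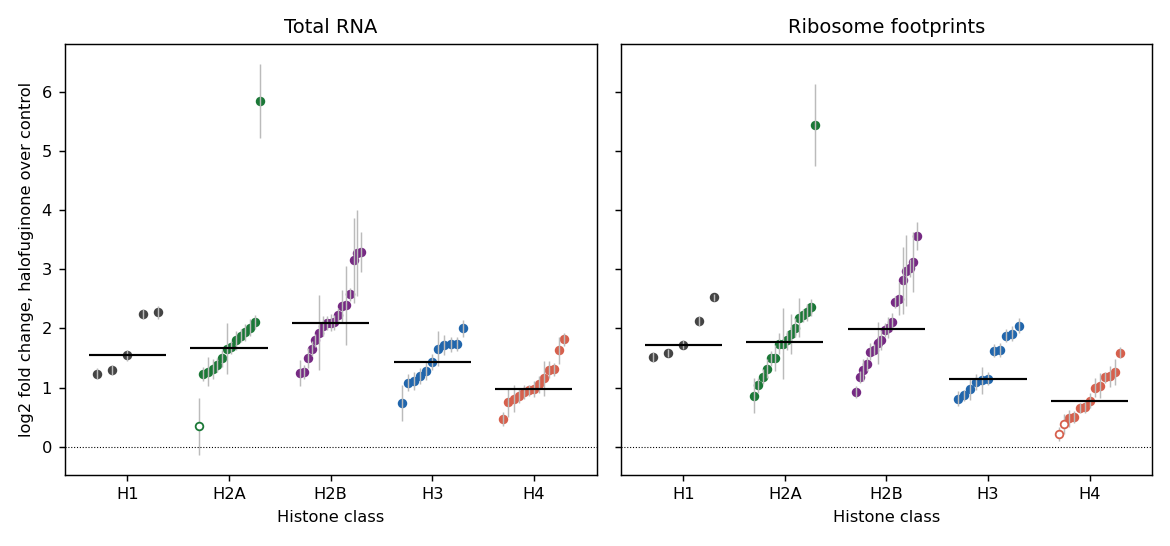
Log2 fold change of HF over control for each tested histone gene, by class, in total RNA (left) and ribosome footprints (right); points are genes, grey lines 1 standard error, black lines class medians, and open points genes that did not pass the test. All points lie above 0, and H4 has the lowest median in both panels (0.98 and 0.78).

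The classes differed in size of change. In RNA the median log2 fold change was 2.10 for H2B, 1.67 for H2A, 1.54 for H1, 1.44 for H3 and 0.98 for H4. In footprints it was 1.99 for H2B, 1.77 for H2A, 1.73 for H1, 1.15 for H3 and 0.78 for H4. H2B had the highest and H4 the lowest median in each of 14 settings of the RNA fit and each of 14 of the footprint fit, left-out libraries included. The members that entered through the HF libraries were all H2A or H2B genes, and without them the medians were 1.68 for H2A and 2.07 for H2B in RNA and 1.77 and 1.80 in footprints. These are descriptions of the members, with no test between classes.

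H1, the linker histones, gave the most counts of the 5 classes in 11 of the 12 libraries, all but RPF control 2. These counts are not corrected for gene length. Per kilobase, over members with spans under 1000 bases, the median control level in RNA was 634 CPM for H1 and 340 for H4. In footprints it was 1294 for H1 and 1297 for H4. The summed RNA level of H1 genes was 2652, 2454 and 2378 CPM in RNA control 1 to 3 and 8820, 8312 and 8314 CPM in RNA HF 1 to 3, a 3.40-fold ratio of the means. Their summed footprint level was 5525, 6220 and 5996 CPM in control and 21927, 22997 and 22605 CPM in HF libraries, a 3.81-fold ratio and the highest among the 5 class sums in footprints. Control and HF values lay far apart in both assays, and 5 of 5 tested H1 genes rose in each.

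Within H1 the mix of genes moved. Hist1h1a read 609, 658 and 569 CPM in RNA control libraries and 3063, 2789 and 2869 CPM in RNA HF libraries. Its log2 fold change was 2.25 ± 0.086 (SE; edgeR, adjusted p = 2.03e-33), and in footprints 2.52 ± 0.065. Its share of H1 counts went from 24.6% ± 2.00 to 34.3% ± 0.623 in RNA and from 21.4% ± 0.571 to 32.2% ± 1.80 in footprints (SD, n = 3), with no overlap of the groups. Hist1h1c, with a log2 fold change of 2.27 in RNA and 2.12 in footprints, went from 12.4% ± 2.21 to 17.9% ± 1.03 of H1 counts in RNA. In footprints its share was 13.1% ± 0.586 in control and 15.0% ± 1.97 in HF libraries, and there the groups overlapped. The remaining 3 genes took smaller shares in HF cells. Hist1h1e, which had the lowest fold change of the class (1.24 in RNA and 1.52 in footprints), went from 18.8% ± 0.598 to 13.1% ± 0.448 in RNA, Hist1h1b (1.29 and 1.59) from 23.4% ± 1.74 to 16.9% ± 0.135, and Hist1h1d (1.54 and 1.73) from 20.8% ± 1.09 to 17.8% ± 0.812. The sixth, Hist1h1t, is the testis-specific H1 and was hardly counted.

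H2A and H2B pair with each other in the nucleosome. Summed H2A RNA was 1438, 1307 and 1237 CPM in control and 4282, 4285 and 4340 CPM in HF libraries, a 3.24-fold ratio. Summed H2B RNA was 1510, 1273 and 1424 CPM in control and 5528, 5078 and 5725 CPM in HF libraries, a 3.88-fold ratio and the highest class sum ratio in RNA. All HF libraries lay well above all control libraries for both classes.

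In footprints H2A summed to 2754 ± 282 CPM in control and 8956 ± 1467 CPM in HF cells (SD, n = 3), a 3.25-fold ratio, and H2B to 3628 ± 321 and 12132 ± 1522 CPM, a 3.34-fold ratio. RPF HF 1 stood apart from the other HF footprint libraries in some of the classes. It held the highest value of the 3 for 38 of the 63 tested members, against 33.3% of all tested genes, and exceeded the next HF library by more than 1.2 times for 24 of the 63, against 14.2%. By class it was highest for 13 of 16 H2A, 10 of 18 H2B and 9 of 13 H4 genes, and more than 1.2 times above the next for 10, 5 and 7 of them. It was highest for 2 of 5 H1 and 4 of 11 H3 genes, and more than 1.2 times above the next for 0 and 2 of them. Without it the ratio was 2.97 for H2A and 3.103 for H2B, the median log2 fold change of all members in footprints was 1.46, and 57 of 61 tested members rose.

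**Figure D2:**
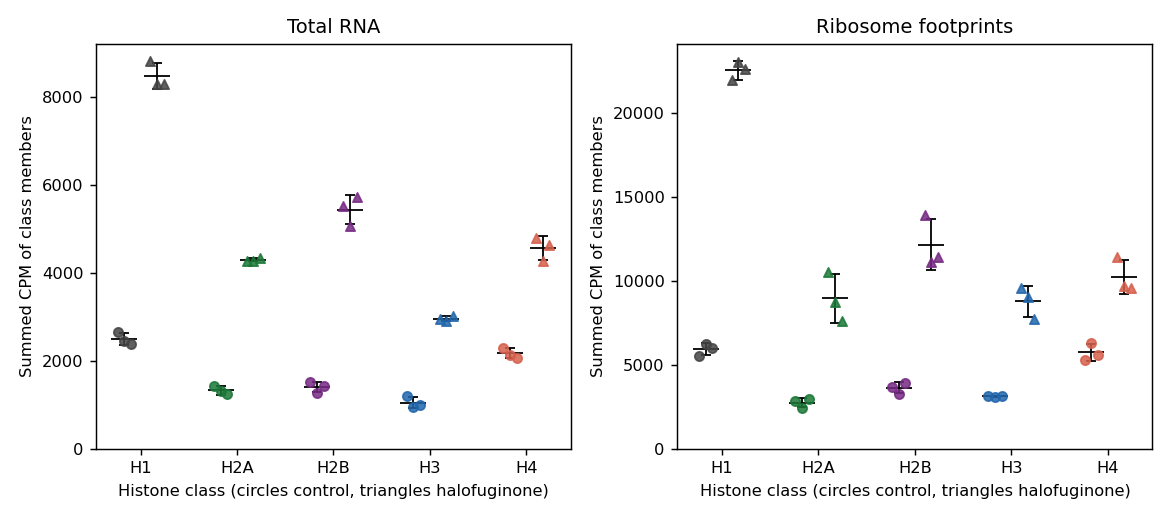
Summed CPM of the genes of each histone class in each library, for total RNA (left) and ribosome footprints (right); circles are control and triangles HF libraries, horizontal lines are group means and bars 1 SD (n = 3). HF libraries lie above all control libraries in every class, and the groups lie closest for H4, at 2.10-fold in RNA and 1.78-fold in footprints.

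Of 14 tested H2A genes 13 rose in RNA, and 16 of 16 rose in footprints. Apart from Hist2h2ab and the rare Hist3h2a, the log2 fold change of the tested H2A genes in RNA ran from 1.22 to 2.11. Hist1h2ag marked the upper end, at 144, 149 and 104 CPM in RNA control and 573, 549 and 588 CPM in RNA HF libraries, with a log2 fold change of 2.11 ± 0.122 (edgeR, adjusted p = 6.7e-24). Hist1h2ab, the H2A gene with the most counts in RNA, had 1.88 in RNA and 2.22 in footprints. Hist2h2ab was the member that did not pass in RNA. It read 15.3, 22.6 and 5.25 CPM in RNA control and 10.6, 15.7 and 25.9 CPM in RNA HF libraries, with a log2 fold change of 0.34 ± 0.486 (edgeR, adjusted p = 0.596), and the groups overlapped. Its footprints passed at 0.86 (adjusted p = 0.0186), but DESeq2 (0.83, adjusted p = 0.0654) and 3 left-out libraries each ended the call. The value was 0.85 without RPF control 2 (edgeR, adjusted p = 0.0503), 0.74 without RPF control 3 (0.0655) and 0.40 without RPF HF 1 (0.417).

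All H2B genes that could be tested rose, 17 of 17 in RNA and 18 of 18 in footprints. Hist1h2bp had the highest fitted fold change among tested H2B genes in both assays. Its RNA control counts of 7, 6 and 8 were under the minimum of the filter, so it entered the RNA test through its HF counts of 73, 82 and 124, at 5.64, 8.46 and 8.40 CPM in RNA control and 64.2, 80.6 and 73.0 CPM in RNA HF libraries. Its partner across 234 bases of shared DNA, the H2A gene Hist1h2an, read 78.1, 77.5 and 73.5 CPM in control and 206, 179 and 185 CPM in HF libraries, with a log2 fold change of 1.31 in RNA. Of the 7 head-to-head pairs with both genes tested in RNA this one differed most, by 1.98 on the log2 scale, and Hist1h2ag and Hist1h2bj differed least, by 0.01. The median difference was 0.11 over these 7 pairs. It was 0.30 with the neighbours of unplaced strand added, namely Hist1h2bc (2.57) with Hist1h2ac (1.68) and Hist2h2be (3.15) with Hist2h2ac (1.38). The RefSeq span of Hist1h2bp is longer than a single histone unit (chr13:21787483-21801561).

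The more abundant H2B genes rose by less than Hist1h2bp. Hist1h2be, the H2B gene with the most RNA counts, read 178, 140 and 161 CPM in RNA control and 840, 654 and 768 CPM in RNA HF libraries, and its log2 fold change was 2.23 ± 0.115 (edgeR, adjusted p = 1.69e-26). Its annotated span of 37455 bases overlaps the long non-coding gene Gm33387, and whether reads of that gene are in its count was not tested. Hist1h2bb followed at 1.80 in RNA and 1.64 in footprints. Hist1h2bf had the lowest value of the class in RNA (1.24) and Hist2h2bb in footprints (0.93).

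H3 and H4 form the central tetramer of the nucleosome. Summed H3 RNA was 1193, 958 and 991 CPM in control and 2946, 2917 and 3023 CPM in HF libraries, a 2.83-fold ratio, and summed H3 footprints had a 2.81-fold ratio. All 11 tested H3 genes rose in each assay, with RNA values from 0.74 (Hist2h3c2) to 2.00 (Hist1h3a). Hist1h3a read 121, 53.6 and 91.4 CPM in RNA control and 357, 378 and 371 CPM in RNA HF libraries (edgeR, adjusted p = 1.11e-18). In footprints the values ran from 0.81 (Hist1h3d) to 2.05 (Hist1h3e).

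Hist2h3c2 passed narrowly in RNA. It read 36.2, 28.2 and 17.9 CPM in RNA control and 58.9, 33.4 and 46.5 CPM in RNA HF libraries, so the groups overlapped (0.74 ± 0.302; edgeR, adjusted p = 0.0404). The call ended with upper-quartile factors (0.69; edgeR, adjusted p = 0.0580), the stricter filter (0.68, adjusted p = 0.0521) and DESeq2 (0.76, adjusted p = 0.0855), and when any of 4 libraries was left out. The value was 0.75 without RNA control 2 (edgeR, adjusted p = 0.0579), 0.50 without RNA control 3 (0.216), 0.58 without RNA HF 1 (0.186) and 0.76 without RNA HF 3 (0.0884). Its near-copy Hist2h3c1 was at 0 in all 12 libraries, as was Hist2h2aa1, a near-copy of Hist2h2aa2.

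Mouse H3 genes encode 2 replication-dependent proteins, H3.1 (Hist1h3a, Hist1h3g, Hist1h3h and Hist1h3i) and H3.2 (the other 8). The H3.1 genes had a median log2 fold change of 1.59 in RNA and 1.63 in footprints, and the tested H3.2 genes 1.28 and 1.09. The H3.1 genes took 43.6% ± 1.63 of H3 counts in RNA control and 47.5% ± 0.399 in RNA HF libraries (SD, n = 3), with no overlap. In footprints the share was 43.9% ± 2.09 in control and 46.8% ± 2.27 in HF libraries, and there the groups overlapped.

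H4 rose the least of the 5 classes. Summed H4 RNA was 2303, 2142 and 2076 CPM in control and 4807, 4268 and 4631 CPM in HF libraries, a 2.10-fold ratio. Summed H4 footprints were 5296, 6302 and 5603 CPM in control and 11384, 9685 and 9552 CPM in HF libraries, a 1.78-fold ratio and 1.68-fold without RPF HF 1. H4 thus took a smaller share of all histone counts in HF cells, 17.7% ± 0.530 against 25.8% ± 0.527 in RNA and 16.3% ± 0.599 against 27.1% ± 2.15 in footprints (SD, n = 3). The ratio of summed H2B to summed H4 CPM went from 0.645 ± 0.0468 to 1.19 ± 0.0433 in RNA and from 0.639 ± 0.103 to 1.19 ± 0.0370 in footprints. The control and HF libraries did not overlap for either the H4 share or this ratio.

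**Figure D3:**
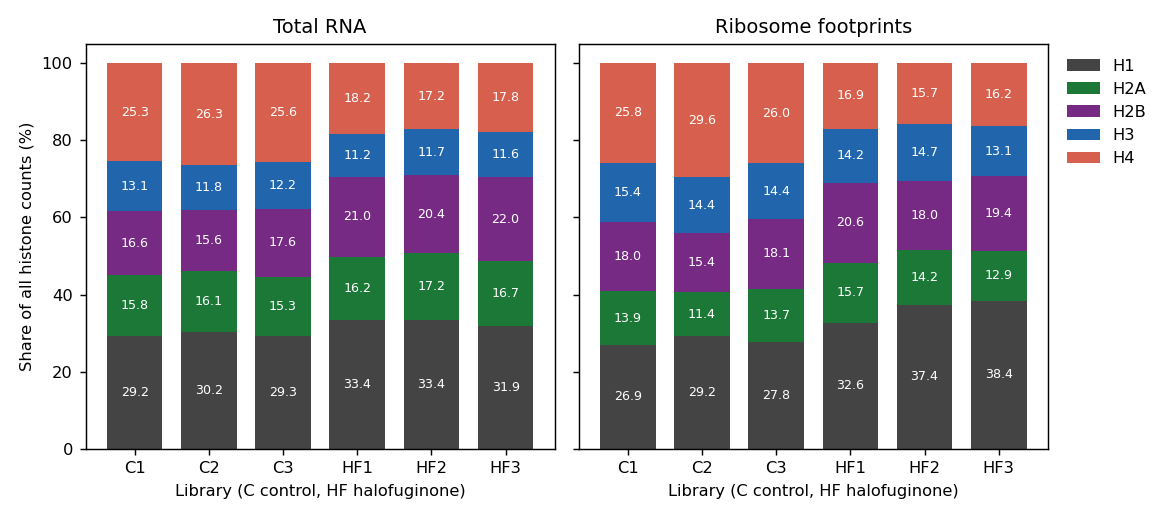
Share of each class among all histone counts of a library (percent), for total RNA (left) and ribosome footprints (right), with control libraries C1 to C3 and HF libraries HF1 to HF3. The H4 part shrinks from a mean of 25.8% to 17.7% in RNA and from 27.1% to 16.3% in footprints.

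All 13 H4 genes passed in RNA. Hist2h4 had the highest fold change of the class and read 170, 175 and 182 CPM in RNA control and 605, 589 and 652 CPM in RNA HF libraries, a log2 fold change of 1.81 ± 0.111 (edgeR, adjusted p = 1.37e-22). It went from 8.10% ± 0.689 to 13.5% ± 0.798 of H4 counts in RNA. Hist1h4d, the H4 gene with the most RNA counts, had the highest control level per length among the members with spans under 1000 bases, at 1338 CPM per kilobase in RNA. Its log2 fold change was 0.95 in RNA and 0.65 in footprints. Hist4h4, the gene outside the clusters, had 1.31 and 1.17, and Hist1h4j had 1.63 in RNA.

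The smallest change among H4 genes in both assays was that of Hist1h4h. It read 240, 189 and 231 CPM in RNA control and 343, 299 and 282 CPM in RNA HF libraries, a log2 fold change of 0.47 ± 0.122 (edgeR, adjusted p = 0.00115). Its footprints were 478, 690 and 524 CPM in control and 701, 714 and 531 CPM in HF libraries, where the groups overlapped and the test did not pass (0.21 ± 0.121; edgeR, adjusted p = 0.168). Without RPF control 2 the value was 0.37 (adjusted p = 0.0241), and without RPF HF 3 it was 0.32 (adjusted p = 0.0322).

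Hist1h4i also did not pass in footprints, at 0.38 ± 0.169 (edgeR, adjusted p = 0.0712), although its HF libraries (177, 131 and 123 CPM) lay above its control libraries (119, 117 and 103 CPM). Without RPF HF 3 it passed at 0.47 (adjusted p = 0.031). Hist1h4n passed in RNA at 0.75 (adjusted p = 0.011), but not once RNA control 2 (0.58, with an adjusted p of 0.0635) or RNA HF 3 (0.67, with 0.0677) was left out. The class as a whole is described by its sum above, since H4 genes encode the same protein and near-identical copies may share reads.

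Some rare members had more counts in HF cells, while others were at 0 or had too few counts to compare. Hist3h2a, an H2A gene of HIST3, was counted 2 times over the 3 RNA control libraries and 173 times over the 3 RNA HF libraries. Scaled for depth the ratio was 65.2, with a 95% exact interval of 17.8 to 543. It covers counting error only and treats each count as independent, which the many even low counts leave in doubt. It read 54.5, 47.2 and 37.1 CPM in RNA HF libraries, and since it entered the test through those libraries alone, its call among the 59 is no independent support. Hist1h2ap had 10 RNA counts in control and 24 in HF cells, was not tested in RNA, and its groups overlapped. Footprints of Hist3h2a were 0 counts in control and 2 in HF libraries. That is under the limit of 3 counts that a count of 0 allows, so that no fold is given. The span of Hist3h2a lies within that of Trim17 (chr11:58954671-58973075), and no source used here gives the strand setting of the counting. Trim17 itself had 0 counts in 11 libraries and 2 in RNA HF 3.

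Hist1h1t, Hist1h2aa and Hist1h2ba are known as testis histones. Hist1h1t had 0 counts in control and 14 in HF cells in RNA, at least 3.52-fold higher against a floor of 3 counts over the group, and 0 and 10 in footprints, at least 5.52-fold higher. Hist1h2aa had 0 and 30 counts in RNA, at least 7.54-fold higher, and 3 and 96 counts in footprints, a ratio of 53.0 with an interval of 17.6 to 262. Hist1h2ba had 9 and 67 counts in RNA and 57 and 122 in footprints. Hist1h2aa and Hist1h2ba both overlap the long non-coding gene Gm33516, and whether reads of that gene are in their counts was not tested. Counts of the 3 genes were low next to other members but present in each HF library. Of the listed germ line markers 4 of 4 were at 0 in all 12 libraries.

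Footprints relative to RNA, called translational efficiency (TE), were tested as an assay-by-treatment interaction and moved for few histone genes. Of 59 members tested, 6 rose (6.13% of all tested genes rose) and 2 fell (8.23% of all fell), and 51 did not pass. The balance of directions was not stable: without RNA control 1 the calls were 2 higher and 6 lower, and with no filter 4 higher and 6 lower. The median change was -0.11, against 0.00 over all tested genes. By class it was 0.28 for H1, 0.12 for H2A, -0.15 for H2B, -0.10 for H3 and -0.24 for H4. Of 13 H4 genes 12 had a negative TE change, as did 34 of all 59 members, but 0 of 13 passed. Hist1h4d (-0.29) did pass with no filter (-0.33) and without RNA control 1 (-0.43), RPF control 1 (-0.39) or RPF HF 1 (-0.37), and Hist1h4j (-0.64) without RPF HF 1 (-0.91). Such gains were not particular to H4. Among named members of other classes, Hist1h1d, Hist1h1e and Hist1h2ab passed as higher in some settings, and Hist1h2ag and Hist1h3a as lower. The order of the classes in TE was not stable, since H1 was highest and H4 lowest in 17 of 20 settings. H2B was lowest in the other 3, and in 1 of those H2A was highest.

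**Figure D4:**
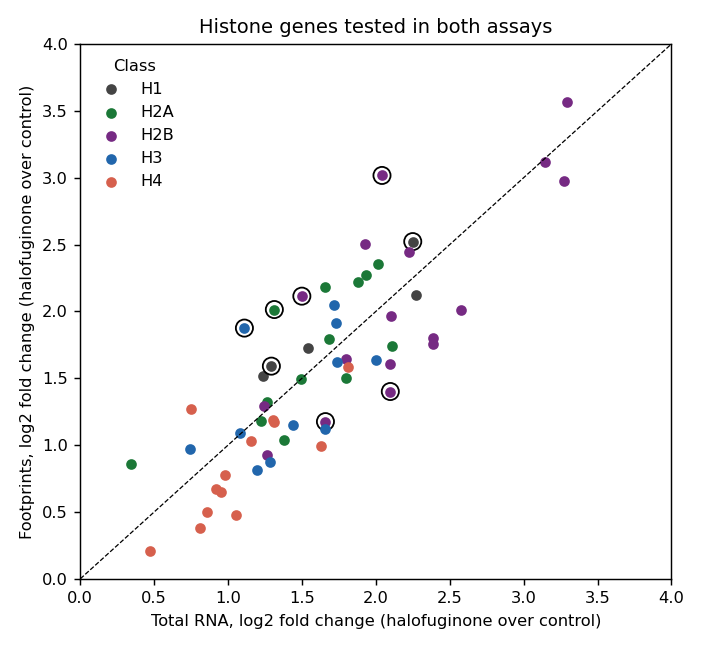
Log2 fold change in total RNA (horizontal) against that in footprints (vertical) for the 59 histone genes tested in both, coloured by class; the dashed line marks equal change and rings mark the 8 genes whose TE change passed. Most H4 genes lie below the line, and Hist1h2bn lies farthest above it among the ringed genes.

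As a ratio of group means, the summed footprint CPM of H1 genes was 2.37 times the summed RNA CPM in control cells (2.08 to 2.62 over library pairs) and 2.65 times in HF cells (2.49 to 2.77). For H4 genes it was 2.64 times in control cells (2.30 to 3.04) and 2.23 times in HF cells (1.99 to 2.67). The ratio was 2.07 and 2.08 for H2A, 2.59 and 2.23 for H2B, and 2.98 and 2.96 for H3. The ranges of control and HF cells overlapped in all 5 classes. Each assay was scaled to itself, so a single ratio has no absolute meaning.

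Hist1h2bn had the highest TE change. Its RNA was 60.4, 39.5 and 62.0 CPM in control and 255, 180 and 244 CPM in HF libraries. Its footprints were 140, 109 and 141 CPM in control and 1300, 699 and 1105 CPM in HF libraries. Both groups rose without overlap, by 2.04 in RNA and 3.02 in footprints, and the TE change was 0.98 ± 0.248 (edgeR, adjusted p = 0.00407). It passed with each library left out in turn, and with DESeq2 the adjusted p was 0.0764.

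Hist1h3g, an H3.1 gene, had RNA of 95, 107 and 104 CPM in control and 236, 178 and 241 CPM in HF libraries, and footprints of 210, 254 and 260 CPM in control and 780, 922 and 940 CPM in HF libraries. Its TE change was 0.77 ± 0.184 (edgeR, adjusted p = 0.00243). It passed in all the settings run, and among the 8 it was alone in that. Hist1h2bj, with 2.10 in RNA and 1.40 in footprints, had the lowest TE change, -0.69 ± 0.189 (edgeR, adjusted p = 0.00917). It did not pass without RNA control 3 (-0.49, adjusted p = 0.0813), with DESeq2 (-0.69, adjusted p = 0.112) or with limma-voom (-0.62, adjusted p = 0.0554).

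The calls of the other 5 depended on single libraries, and 4 of them also on the settings. Hist1h1a (0.28, adjusted p = 0.0268) was lost without RNA control 1, RNA control 2, RNA HF 2, RNA HF 3, RPF control 1, RPF control 3 or RPF HF 2, at values of 0.21 to 0.29, and with no filter (0.24, adjusted p = 0.107). Hist1h1b (0.31, adjusted p = 0.0244) was lost without RNA control 1, RNA control 3, RNA HF 2, RPF control 1, RPF control 3 or RPF HF 2, at 0.25 to 0.28, and with no filter (0.26, adjusted p = 0.0838). Hist1h2an (0.71, adjusted p = 0.0349) was lost with 9 of the 12 libraries left out in turn, all but RNA HF 1, RPF control 1 and RPF HF 3, at 0.52 to 0.73. These values kept their sign, and the p-values are those of edgeR.

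Hist1h2bm (0.62, adjusted p = 0.0441 by edgeR) was lost with 8 of the 12 left out, all but RNA HF 1, RPF control 1, RPF HF 2 and RPF HF 3, at 0.39 to 0.66, with upper-quartile factors (0.59, adjusted p = 0.0552), with DESeq2 (0.63, adjusted p = 0.0639) and with limma-voom (0.72, adjusted p = 0.0523). Hist1h2bh (-0.48, adjusted p = 0.0368) was lost without RNA control 2, RNA control 3, RNA HF 3, RPF control 1 or RPF HF 3, at -0.44 to -0.36, with the stricter filter (-0.43, adjusted p = 0.0505) and with DESeq2 (-0.46, adjusted p = 0.0644). Over all members the count of TE calls was 4 without RNA control 2, RNA control 3, RNA HF 3 or RPF control 3, 5 without RNA HF 2 (2 higher, 3 lower) or RPF HF 2, and 13 (5 higher, 8 lower) without RPF HF 1. The count of histone genes with a TE change therefore rests on which libraries are used.

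Genes that make, process or degrade histone mRNA did not move as a group in a single direction. Of 23 tested in RNA 11 rose and 3 fell, against the 22.2% and 21.4% of all tested genes given above, with a median of 0.45. In footprints 7 of 24 rose and 4 fell (22.4% and 20.9% of all), with a median of 0.05. Slbp, the stem-loop binding protein, went from 69.1 ± 3.63 to 124 ± 9.30 CPM in RNA (0.84; edgeR, adjusted p = 0.000133) and rose by 1.36 in footprints, while its TE change of 0.53 did not pass (adjusted p = 0.0710). With the stricter filter the TE change of Slbp did pass (0.58; edgeR, adjusted p = 0.0369). Npat, the coactivator of histone gene transcription, rose by 1.37 in RNA and 0.62 in footprints, but its footprint call was lost when any of 3 libraries was left out (edgeR). The value was 0.63 without RPF control 2, with an adjusted p of 0.0519, 0.57 without RPF control 3, with 0.0527, and 0.58 without RPF HF 1, with 0.0700. Casp8ap2, also a factor of the histone locus body, had 1.22 and 0.74, but its RNA call was lost without RNA HF 2 (0.81; edgeR, adjusted p = 0.124). Its footprint call was lost without RPF control 1 (0.47), RPF control 2 (0.80), RPF HF 1 (0.61) or RPF HF 2 (0.69). That call also ended with upper-quartile factors (0.65; edgeR, adjusted p = 0.0502) and with DESeq2 (0.70, adjusted p = 0.0792). Hinfp, the factor named above for its H4 element, rose by 1.61 in RNA and 1.14 in footprints. Ccne2, a cyclin that activates CDK2 at the start of S phase, rose by 1.30 in RNA and did not pass in footprints (0.38; edgeR, adjusted p = 0.0815). Its TE fell by 0.92 (adjusted p = 0.0349), a call that was lost with limma-voom (-0.87) and with each of 7 libraries left out (-0.96 to -0.73).

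Replacement histones, whose mRNAs can have poly(A) tails and be made outside S phase too, differed from gene to gene. Of 10 tested in RNA 3 rose and 1 fell (22.2% and 21.4% of all tested genes), and of 11 in footprints 5 rose and 0 fell (22.4% and 20.9% of all). For TE 3 of 10 tested rose and 1 fell (6.13% and 8.23% of all). H3f3b, a gene for H3.3, went from 272 ± 3.50 to 1088 ± 66.7 CPM in RNA, a log2 fold change of 2.00, and rose by 2.79 in footprints (edgeR, adjusted p = 4.81e-23). The TE of H3f3b rose by 0.80 (edgeR, adjusted p = 1.27e-06). H1f0, a linker histone of resting cells, rose by 0.81 in RNA and 2.30 in footprints, and its TE rose by 1.49 (edgeR, adjusted p = 8.74e-10). H2afx, the H2A that marks broken DNA once phosphorylated, rose by 1.58 and 1.10. Its TE fell by 0.47 (edgeR, adjusted p = 0.00847), a call lost without RPF control 2 (-0.38). Which form of its mRNA was counted, with or without a poly(A) tail, was not tested. H2afz did not pass in RNA (-0.08) and rose by 0.80 in footprints. Its TE rose by 0.89 (edgeR, adjusted p = 0.0264), a call that several left-out libraries each ended, RNA control 1 among them (0.75). H3f3a, the other gene for H3.3, was too low to be tested in RNA and had -0.02 in footprints, where it did not pass.

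Of 24 genes of S phase and DNA replication, 17 rose and 0 fell in RNA (22.2% and 21.4% of all tested genes), with a median of 0.76. In footprints 17 rose and 1 fell (22.4% and 20.9% of all), with a median of 0.60. Slbp is counted in this list as well as in that of histone mRNA genes above. Cdt1 and Cdc6, both licensing factors of replication origins, rose by 1.83 and 1.74 in RNA and by 1.22 and 1.68 in footprints. Pola1, the catalytic subunit of the polymerase that starts DNA strands, rose by 1.67 in RNA and 0.61 in footprints, and its TE fell by 1.05 (edgeR, adjusted p = 0.00976). Of 16 tested histone chaperones 4 rose and 3 fell in RNA, near the shares of all tested genes (22.2% and 21.4%). Among them Asf1a rose by 0.90 (lost without RNA control 2, at 0.69), Chaf1b, a subunit of the chaperone that loads H3 and H4 on new DNA, fell by 0.82 and Hira, a chaperone of H3.3, fell by 1.34. In footprints 5 of 15 tested chaperones rose and 2 fell (22.4% and 20.9% of all tested genes). Of 19 genes of G2 and mitosis 4 rose and 5 fell in RNA, also near the shares of all tested genes in RNA, among them Mki67 at 1.39, Kif11 at 1.36 and Kif20a at -1.22. In footprints 4 of the 19 rose and 4 fell (22.4% and 20.9% of all). There Mki67 rose by 1.07 and Kif20a fell by 1.12. Kif11 did not pass there (-0.06; edgeR, adjusted p = 0.724), and its TE fell by 1.41 (adjusted p = 5.94e-06). Whether the share of cells in S phase differed was not measured.

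Across the whole series the 12 libraries held 562794 to 2527791 counts. Fibroblast markers (9 genes) summed to 7790 to 8155 CPM in RNA control, 9365 to 9684 in RNA HF, 15960 to 16930 in RPF control and 12379 to 12717 in RPF HF libraries, so the defining markers of the labelled cells were present in both assays. Of 5 epithelial markers 2 were at 0 in all libraries and the sum was at most 3.79 CPM, and of 3 muscle markers 1 was at 0 with a sum of at most 1.13 CPM. Endothelial markers (2 of 4 at 0 in all libraries) summed to 0 to 1.61 CPM in RNA control and 5.28 to 15.7 in RNA HF libraries, blood markers (3 of 5 at 0) to 0 and 0 to 5.89, and neural markers (1 of 3 at 0) to 23.1 to 41.1 and 7.86 to 32.5. In footprints the control and HF sums were 0 to 4.06 and 3.35 to 12.4 CPM for endothelial, 0 to 4.06 and 0 for blood, and 63.2 to 88.3 and 25.1 to 60.7 for neural markers. Their part in the histone results was not tested.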

How the data were processed

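Total RNA and ribosome footprints of mouse embryonic fibroblasts were analysed in 12 libraries, 3 for each of 4 groups taken from the library titles. The authors deposited 1 table per library with whole-number read counts for each gene, not normalized. The submitters' processing notes name HTSeq, HISAT2, Bowtie and the genome build GRCm38, without versions or order. Per the labels' protocols, total RNA was broken by alkaline hydrolysis, footprints came from RNase I digestion and the monosome fraction of a sucrose gradient, and both were selected by size on a gel. Which feature was counted, whether strand was used and how reads with several matches were handled is not given in the sources used here. Histone copies with near-identical coding sequence may therefore share, lose or exchange reads, which class sums avoid only where reads were kept. In each library 63.8% to 79.6% of the counts from 1 to 19 were even.

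Symbols came from the ID table (55450 of 55536 IDs matched) and gene types, coordinates and promoter windows from RefSeq. No entry named no gene, and 0 columns belonged to no sample. Of 70 symbols with the histone prefixes, 3 are not typed as protein-coding and were left out of the members. The members and the gene lists were chosen with earlier results of these data known.

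The tests used edgeR 4.0.16 under R 4.3.3 (the quasi-likelihood test with TMM factors, and filterByExpr with a minimum count of 10) and Benjamini-Hochberg adjustment over all genes tested, with a threshold of 0.05. RNA was tested over 9145 genes, footprints over 8372 protein-coding genes and TE over 7924 genes, with the interaction in a single model over the 12 libraries and TMM factors within each assay. With no spike-in described, a change means one relative to most other genes. The labels do not say that replicates were separate cultures, so the p-values cover the spread among these libraries alone, and that spread may be technical. Scripts were tested on simulated counts. Floors of 3 counts and exact 95% intervals cover counting error only and treat each count as independent. Most low counts were even, so counts may not be independent, and these intervals and floors may then be too narrow. This was not tested.

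Named members were set by a rule: per class the 2 with the highest mean RNA CPM, the highest and lowest change in each comparison, every tested member that did not pass in RNA or footprints, those that passed for TE, the 3 largest changes of each context list, and Slbp, Npat, Casp8ap2, H2afz, H2afx, H3f3a, H3f3b and H1f0. Hist1h3f and Hist2h3b also fell under this rule but are not described, Hist1h3i is named without values, and not every value the rule covers is given. Trim17, the rare members, the near-copies and the genes of the printed promoters that fall outside this rule were chosen after their values were seen. Alternatives were RLE and upper-quartile factors, no filter and a stricter filter (minimum count of 20), DESeq2 1.42.0, limma 3.58.1 with voom for TE, a replicate block, another set of genes in the table, and each library left out in turn. Leaving out the testis histones the members with spans of 1000 bases or more, or the members under the filter's minimum in a control library was added after seeing the data.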

Additional observations from a re-analysis of the deposited data

Results flagged for a closer look

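In 8 of the 59 histone genes tested the footprint change differed from the RNA change by the test of the interaction (edgeR, adjusted p under 0.05). Of all tested genes 6.13% passed in the positive and 8.23% in the negative direction, so the count of histone genes is near the share of all genes. The log2 difference was positive for Hist1h2bn (0.98), Hist1h3g (0.77), Hist1h2an (0.71), Hist1h2bm (0.62), Hist1h1b (0.31) and Hist1h1a (0.28). It was negative for Hist1h2bj (-0.69) and Hist1h2bh (-0.48). Of the 8, only Hist1h3g passed in all the settings run. Near-identical copies of these genes may share reads, and the part of this in the differences was not tested.

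Footprints were also counted on the 3 genes with a histone symbol that are not typed as protein-coding, which are outside the members. For each of them all HF footprint libraries lay above all control libraries, which was the case for 25.1% of all tested genes. Hist1h2al had 107 ± 17.96 CPM in control and 232 ± 45.3 CPM in HF footprint libraries (SD, n = 3). Hist3h2bb-ps had 4.38 ± 2.20 and 49.2 ± 24.6 CPM, and Hist1h2aj 1.49 ± 0.319 and 21.6 ± 7.91 CPM. Over the control libraries they had only 21 and 7 footprint counts. In RNA, Hist1h2al rose by 1.89 on the log2 scale and Hist3h2bb-ps by 1.99 (edgeR, adjusted p = 1.84e-10 and 0.0134), while Hist1h2aj had 3 counts in control and 4 in HF cells and was not tested.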

How the results depend on the processing

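The count of histone genes that rose stayed within 1.5 times its value in every setting run, at 57 to 59 with each RNA library left out and 57 to 63 with each footprint library left out. The labels state no pairing of same-numbered libraries. Their deviations from the group means did not correlate (r of -0.03 to 0.02), and not every library correlated best with its own number. This cannot exclude a shared culture, since counting error at this depth could hide a link. A fit with the replicate number as a block called 59 members in RNA, 61 in footprints and 10 in TE (6 higher, 4 lower). TE calls numbered 4 (all higher) with DESeq2 and 4 to 13 with each library left out. The RNA median was 1.59 with upper-quartile factors, 1.70 with no filter, 1.53 with the stricter filter, 1.61 with the block, 1.61 as a ratio of summed counts, and 1.52 to 1.73 with each library left out. With each library left out the footprint median was 1.46 to 1.71 and the TE median -0.18 to -0.03. The class sums, as log2 of the HF over control ratio, had a main value of 1.77 for H1 in RNA, which was 1.68 as a share of nuclear protein-coding counts and 1.57 without its most abundant gene. H2A in RNA (1.70) was 1.61 and H4 in RNA (1.07) 0.99 as such shares, and H1 in footprints (1.93) was 1.85 with upper-quartile factors, 1.84 as such a share and 1.71 without its most abundant gene. With each library left out the class sums were 1.73 to 1.81 for H1, 1.65 to 1.76 for H2A, 1.89 to 2.01 for H2B, 1.44 to 1.60 for H3 and 1.03 to 1.12 for H4 in RNA, and 1.88 to 1.97 for H1, 1.57 to 1.81 for H2A, 1.63 to 1.80 for H2B, 1.43 to 1.57 for H3 and 0.75 to 0.91 for H4 in footprints. Without the testis histones 58 of 59 members rose in RNA and 59 of 61 in footprints, and with spans under 1000 bases only 54 of 55 and 55 of 57. Over members at the filter's minimum in all control libraries, 52 of 52 rose in RNA with a median of 1.497, and 56 of 58 in footprints with a median of 1.55. The causes of these shifts were not tested. Depth limits members with fewer than about 10 counts per library.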
